A study of Mus musculus with 4 samples.

Results

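The cytosolic ribosomal proteins are described here in RNA-seq of mouse germinal vesicle stage oocytes, the immature oocytes arrested in prophase of the first meiosis. Members were all genes of the deposited transcript table whose mouse symbol begins with Rpl or Rps and a number, together with Rpsa, Rplp0, Rplp1 and Rplp2, without the Rps6k kinases and without genes named as pseudogenes. This gave 89 of 17374 genes and 151 of 45505 transcripts: 31 proteins of the small (40S) subunit, 46 of the large (60S) subunit, 11 paralogs or retrogene copies of them, and Rps19bp1, a binding partner of Rps19 that is not a ribosomal subunit. The rule used names only and no measured value. The 4 libraries comprised 2 of control non-irradiated oocytes and 2 of irradiated oocytes, which had received a γ-ray dose of 5 Gy. Values of the libraries are always listed in the order control 1, control 2, irradiated 1, irradiated 2. All oocytes came from unprimed females at postnatal day 16, of a C57/Bl6 and DBA2J F1 hybrid background, were stripped of cumulus cells and zona, and were kept in milrinone to hold meiosis. At this age most oocytes have the non-surrounded nucleolus configuration, in which transcription is still active. Each library pooled many oocytes, the irradiated ones taken about a day after exposure, and the methods do not say whether control oocytes were cultured as long. RNA was selected with oligo(dT), and the study counted the 2 libraries of a condition as independent experiments.

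A ribosome is built from ribosomal RNA and about one copy each of the ribosomal proteins, so these genes are usually expressed at a high and coordinated level. In growing oocytes, ribosomes are made and stored for the embryo, which cannot transcribe at first. Ribosomal protein mRNAs are the classic TOP mRNAs, which start with a C followed by a run of pyrimidines through which mTOR signalling controls their translation. When ribosome assembly is disturbed in somatic cells, free Rpl5 and Rpl11 can bind MDM2, the ubiquitin ligase that keeps p53 low, which is one link between ribosomes and stress signalling.

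The short sequence around the annotated start was searched for motifs that the rule did not use. RefSeq promoter entries of GRCm38.p6 matched 69 of the 89 genes, with 81 entries. A pyrimidine tract, counted as a C followed by at least 5 further C or T on the sense strand within 20 bases before and 30 bases after the annotated start, was in 65.4% of the 81 entries and in 34.3% of all 32851 promoter entries. The ETS-type sequence CCGGAAG, on either strand within the 250 bases before and 50 after the start, was in 33.3% of the members' entries and 8.86% of all. The YY1-type sequence AAGATGG was in 14.8% and 6.34%, searched in the same way. These are matches of letters and not measured binding sites. The tract was counted anywhere in its window, so its share is not that of tracts at the start. In 8 genes, chosen after their values were seen because the results return to them or because the tract lies at the start, the 10 bases before and the first 20 bases from the start read as follows, 5′ to 3′, with the tract at or next to the start in capitals. All 8 were taken from genes with a tract at or next to the start, so they do not show how common that position is. Rpl38 holds a further tract downstream, left in lower case.
Rps27 (chr3:90213629-90213658, minus strand): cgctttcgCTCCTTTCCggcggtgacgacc
Rps27rt (chr9:114982720-114982749, minus strand): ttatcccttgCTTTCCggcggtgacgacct
Rps26 (chr10:128626487-128626516, minus strand): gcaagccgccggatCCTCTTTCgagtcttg
Rps6 (chr4:86857348-86857377, minus strand): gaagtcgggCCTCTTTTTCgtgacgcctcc
Rpl15 (chr14:18270967-18270996, minus strand): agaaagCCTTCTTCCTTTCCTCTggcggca
Rpl38 (chr11:114668570-114668599, plus strand): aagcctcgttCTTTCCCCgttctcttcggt
Rplp2 (chr7:141447641-141447670, plus strand): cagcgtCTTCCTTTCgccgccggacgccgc
Rpl22l1 (chr3:28805498-28805527, plus strand): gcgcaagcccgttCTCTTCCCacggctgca
The tracts of Rps27 and of its retrogene copy Rps27rt are followed by the same letters. Starts were those of the annotation and were not measured in oocytes.

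Estimated counts summed to between 33349466 and 37232818 per library. Summed TPM (a transcript level corrected for length, whose total is equal across libraries) of 11 oocyte markers, Zp1, Zp2, Zp3, Gdf9, Bmp15, Figla, Nobox, Ooep, Nlrp5, Dppa3 and Kit, lay between 46694 and 52885. The 9 granulosa and cumulus markers in the table summed to 17.6 to 24.5 TPM, of which Cyp19a1 gave 8.79 to 10.2 and Nr5a2 3.53 to 7.43, highest in irradiated library 2. Gja1, Inhba and Hsd17b1 were at or near 0 in every library, and Amh, Foxl2 and Fst were not among the genes analysed here. Irradiated library 2 stood apart from the other 3. Its TMM factor, the scaling that equalizes the bulk of genes, was 1.19 against 0.923 to 0.975. Single oocyte genes also differed there: Zp2 had 4290, 4452, 4115 and 1937 TPM, and Nobox had 398, 440, 468 and 1215 TPM. The results are therefore given by library, and the main ones also without irradiated library 2.

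Ribosomal protein mRNAs were abundant in these oocytes. The 40S and 60S proteins had a median of 218 TPM over the 4 libraries, with quartiles of 128 and 386 TPM, against a median of 4.16 TPM over all 12569 genes tested. Only 5.16% of the genes tested reached the median of the 40S and 60S proteins. The medians of the subunits were 204 TPM for the 40S and 219 TPM for the 60S proteins.

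**Figure D1:**
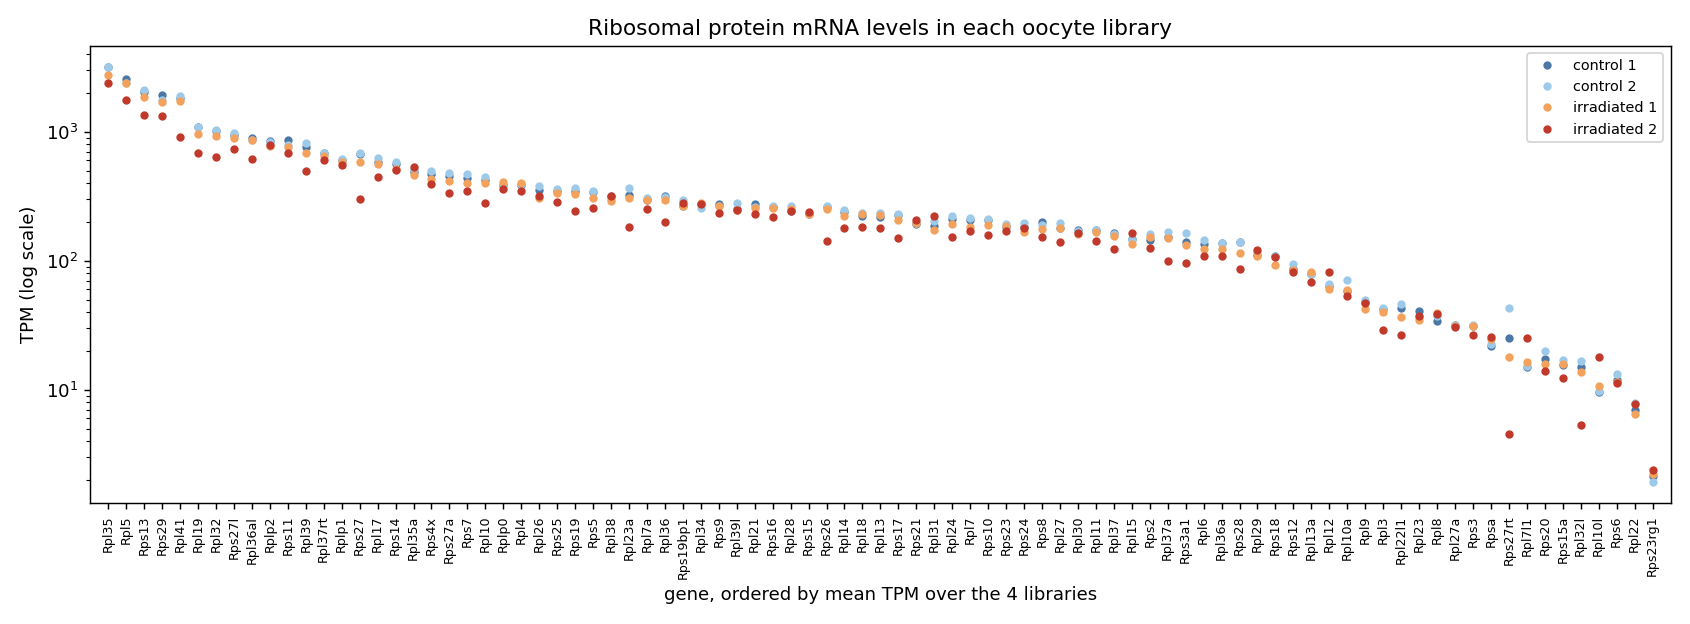
TPM, on a log scale, of 87 members with more than 3 counts in every library, ordered by mean TPM, with a point for each of the 4 libraries. Most genes lie between 100 and 1000 TPM, 5 genes stand above the rest, and the points of irradiated library 2 are most often the lowest of the 4.

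The levels were far from equal within the ribosome. The highest member was Rpl35, a 60S protein near the exit of the peptide tunnel, on chromosome 2 (39001581 to 39005131), with 3191, 3181, 2770 and 2373 TPM. Rpl5, which carries the 5S ribosomal RNA into the 60S subunit, followed with 2551, 2396, 2373 and 1769 TPM. Rps13, Rps29 and Rpl41 had mean levels above 1500 TPM in the control libraries, and these 5 genes together held 31.4% of all TPM of the members. The order was almost the same in every library, with a Spearman correlation across members of 0.998 between the control libraries, 0.998 between the control mean and irradiated library 1, and 0.981 between the control mean and irradiated library 2. Genes are not replicates, and the gene lengths behind TPM are common to all libraries.

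At the other end, Rpl22, a 60S protein that binds RNA and can be replaced by its paralog, had 6.96, 7.87, 6.49 and 7.75 TPM. Rps6, the 40S protein phosphorylated by S6 kinases downstream of mTOR, had 11.9, 13.2, 11.4 and 11.4 TPM. Among the 40S and 60S proteins the highest mean level was 396 times the lowest. The transcripts that the table lists for these genes differ widely in length. The effective length, which is the transcript length open to fragments and was worked out from the deposited counts and FPKM values, had a median of 553 bases over the 40S and 60S proteins but lay above 1500 bases in 7 of them. Rps15a, with 1 listed transcript and an effective length of 4955 bases, had a mean of 15.2 TPM. Its 2101, 2064, 1963 and 1442 counts were closer to the 40S and 60S proteins as a whole, whose median was 3196 normalized counts in control oocytes. Rps20, likewise with 1 listed transcript, of 3265 bases, had 1558, 1594, 1298 and 1065 counts and a mean of only 16.8 TPM. Whether oocytes use these long forms was not tested. Both genes were singled out after their values were seen.

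Members together held 3.53% and 3.56% of all TPM in control libraries 1 and 2, 3.28% in irradiated library 1 and 2.67% in irradiated library 2. The control libraries thus differed by little, irradiated library 1 was slightly below both, and irradiated library 2 was well below all others. The control mean was 3.54% ± 0.0193 (SD, n = 2) and the irradiated mean 2.98% ± 0.430 (SD, n = 2), a difference of -0.564 percentage points, which came to -0.260 with irradiated library 2 left out and -0.868 with irradiated library 1 left out. A two-sided exact permutation test gave p = 0.333 (n = 2 libraries per group), which is the smallest value that 2 against 2 libraries can give. In estimated counts, members held 1.32%, 1.34%, 1.23% and 0.978% of the total. The spread between the irradiated libraries was thus far larger than that between the controls. These are shares of the sequenced RNA, so that less ribosomal protein mRNA per oocyte and more of other mRNA cannot be told apart, nor can fewer oocytes with the full amount.

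Gene by gene, the question was whether ribosomal protein mRNAs changed after irradiation, and none passed the test. Of 88 genes tested by edgeR's quasi-likelihood test, 0 were past both limits of the study, a log2 fold change of more than 2 in either direction together with a Benjamini-Hochberg adjusted p under 0.05, where 0.00796% of all genes tested were. The smallest adjusted p of a member was 0.708. At an unadjusted p under 0.05, 5 members were lower and 0 higher in irradiated oocytes, against 1.29% of all genes lower and 4.63% higher, so that the members' 5.68% in either direction was close to the 5.92% of all genes. DESeq2 also called 0 members past both limits and placed 14 at an unadjusted p under 0.05, all lower, where 0.796% of all genes were. The direction was much less even than these counts: the log2 fold change was below 0 in 86 of 88 members, against 48.6% of all genes tested, and its median was -0.37 for members and 0.01 for all genes. All 31 of the 40S and all 46 of the 60S proteins were below 0.

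**Figure D2:**
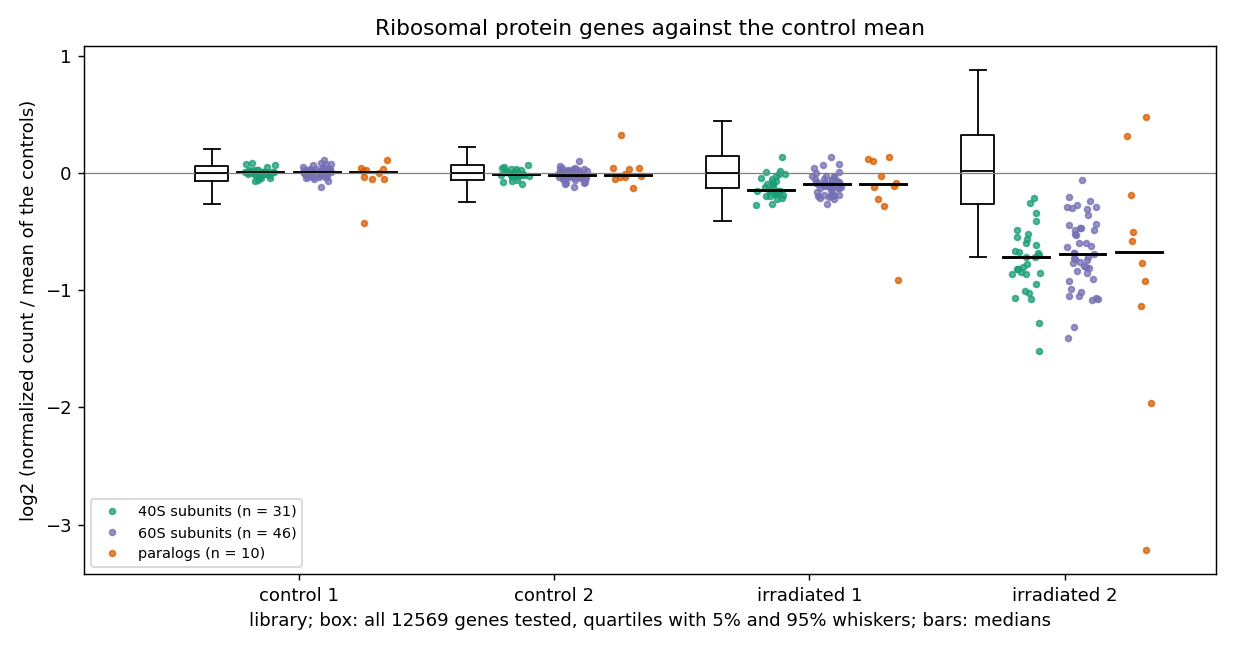
Log2 ratio of the normalized count, with 1 added, to the mean of the 2 control libraries, for each of the 4 libraries; boxes give the quartiles and 5% and 95% points of all 12569 genes tested, coloured points are the 40S, 60S and paralog genes, and black bars are medians. Members sit near 0 in the controls, slightly below 0 in irradiated library 1 (median -0.10) and mostly below -0.4 in irradiated library 2 (median -0.71), where the box of all genes stays centred near 0.

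The 2 irradiated libraries shared the direction but not the size. Relative to the mean of the controls, the median log2 ratio of members was -0.10 in irradiated library 1 and -0.71 in irradiated library 2, which are ratios of 0.930 and 0.613. In irradiated library 1, 76 of 88 members were below the control mean (49.8% of all genes), and 1 was under 0.75 of it (5.22% of all genes). In irradiated library 2, 86 members were below the control mean (48.5% of all genes), 72 were under 0.75 of it (16.0% of all genes), and 17 were under 0.5 of it (1.99% of all genes). The medians in irradiated libraries 1 and 2 were -0.14 and -0.72 for the 40S proteins and -0.09 and -0.69 for the 60S proteins, and the difference between the subunits was not tested. For comparison, control library 2 differed from control library 1 by a median of -0.02 over members, with an SD of 0.116. Irradiated library 2 was lower than irradiated library 1 in 85 members (48.5% of all genes), by a median of -0.61. Both irradiated libraries were below both controls in 68 members (19.9% of all genes) and above both in 2 (22.1% of all genes). On TPM values, which are not rescaled by TMM, 57 of 89 members had both irradiated libraries below both controls, against 5.88% of all genes.

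The result therefore rested mainly on 1 library. Without irradiated library 2, the median log2 fold change of members was -0.10, 76 were below 0, and 11 were lower at an unadjusted p under 0.05 (4.44% of all genes), with 0 higher (5.57%). Without irradiated library 1, the median was -0.72, and 84 members were lower and 2 higher at that p, against 21.3% and 20.2% of all genes. In both of these fits the single irradiated library was assumed to vary as much as the controls did. Without either control library the median stayed at -0.36 or -0.38.

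The 5 members at an unadjusted p under 0.05 were Rpl26, Rps20, Rps28, Rpl22l1 and Rps27rt. Rpl26 (chromosome 11, 68901566 to 68904534), a 60S protein that also binds the p53 mRNA, had 3503, 3658, 2978 and 2364 normalized counts. Both irradiated libraries lay below both controls. The log2 fold change, irradiated over control, was -0.42 ± 0.161 (SE; edgeR adjusted p = 0.708) and -0.27 without irradiated library 2. Rps20 (chromosome 4, 3831584 to 3835655), a 40S protein at the head of the subunit, had 1597, 1728, 1380 and 917 normalized counts, or -0.53 ± 0.204 (SE) on the log2 scale and -0.27 without irradiated library 2. Rps28 (chromosome 17, 33823036 to 33824562), a small 40S protein, had 806, 798, 667 and 381 normalized counts, or -0.62 ± 0.249 (SE) on the log2 scale and -0.27 without irradiated library 2. Its controls were almost equal, and the irradiated libraries differed from each other by more than irradiated library 1 differed from them. Rpl22l1 (chromosome 3, 28805508 to 28807424), whose tract is shown above, had 359, 377, 303 and 167 normalized counts, or -0.65 ± 0.271 (SE) on the log2 scale and -0.28 without irradiated library 2. The edgeR adjusted p was 0.708 for these 3 genes as well.

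Rps27rt (chromosome 9, 114982366 to 114982739), an intronless copy of Rps27, had the most negative value of any member. Its normalized counts were 131, 222, 93.6 and 18.1. The controls already differed from each other by a larger ratio than those of any other member tested. The log2 fold change was -1.70 ± 0.623 (SE; edgeR adjusted p = 0.708). It was -0.91 without irradiated library 2, -3.29 without irradiated library 1, -2.02 without control library 1 and -1.26 without control library 2. Each of these fits leaves 1 library in a condition, which is assumed to vary as much as the other condition. Of the stretches of 100 bases in its GENCODE transcript, 246 of 275 (89.5%) occur also in Rps27, so its estimated count depends on how reads were divided between the copy and its parent. Rps27 itself (chromosome 3, 90212667 to 90213648), a zinc finger protein of the 40S subunit, had 2982, 3023, 2644 and 1046 normalized counts, or -0.70 ± 0.377 (SE) on the log2 scale and -0.18 without irradiated library 2. The parent thus showed the same order of libraries at a far higher count.

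Outside these genes, and chosen after their values were seen, Rps26, a 40S protein at the mRNA exit, had 1915, 1880, 1810 and 782 normalized counts. Rpl41, the smallest ribosomal protein and 1 of the 5 most abundant members, had 13366, 13419, 12595 and 5037 normalized counts. Rpl23a, a 60S protein at the tunnel exit, had 3363, 3665, 3106 and 1412 normalized counts. In all 3 genes the control libraries and irradiated library 1 were close to each other, and irradiated library 2 was under 0.5 of each of them. Members at the other end included Rpsa, the 40S protein also known as the laminin receptor, with 1033, 995, 1118 and 877 normalized counts, and Rpl12, a 60S protein at the base of the stalk, with 801, 792, 742 and 767. In Rpsa the groups overlapped, and in Rpl12 the irradiated libraries lay just below the controls in normalized counts. On TPM Rpl12 had 63.6, 65.5, 60.4 and 82.2, with irradiated library 2 highest.

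The P stalk recruits translation factors to the 60S subunit and is made of Rplp0 with pairs of Rplp1 and Rplp2. Rplp0 had 12730, 11770, 12894 and 8553 normalized counts, or -0.19 ± 0.235 (SE) on the log2 scale, which turned to 0.0746 without irradiated library 2. Rplp1 had 4768, 4654, 4527 and 3272 normalized counts and Rplp2 had 6335, 6078, 5821 and 4436. Their log2 fold changes were -0.27 and -0.28, smaller in size than the member median, and -0.06 and -0.09 without irradiated library 2.

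Members linked to MDM2 and p53 were not an exception. Rpl5 had 74395, 66636, 66632 and 37622 normalized counts, or -0.44 ± 0.331 (SE; edgeR adjusted p = 0.730) on the log2 scale and -0.08 without irradiated library 2. Its partner Rpl11 had 4212, 3988, 3964 and 2543, and Rpl23, a 60S protein that also binds MDM2, had 1007, 859, 820 and 667. Rps27l, a paralog of Rps27 that p53 activates in somatic cells, had 8882, 8824, 8222 and 5215. In normalized counts all 4 genes had both irradiated libraries below both controls, as did 19.9% of all genes. Irradiated library 2 was lowest in each, although in Rpl5 irradiated library 1 was almost equal to control library 2. On TPM Rpl23 had 41.0, 37.0, 34.7 and 37.3, so that irradiated library 2 was above control library 2 on that scale. Trp53, the gene of p53, had 605, 585, 589 and 653 normalized counts, and Mdm2 had 8652, 8021, 10679 and 10011, or 0.31 ± 0.168 (SE; edgeR adjusted p = 0.708) on the log2 scale. Mdm2 was thus above both controls in both irradiated libraries, as were 22.1% of all genes, and did not pass the test. Mdm4, an MDM2 relative that also binds p53, had 118428, 106531, 108408 and 92865 normalized counts. Cdkn1a, a cell cycle inhibitor activated by p53, had 21.5, 20.6, 17.0 and 23.2. Over these 4 genes the median log2 fold change was 0.00, and the groups overlapped in Trp53, Mdm4 and Cdkn1a.

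Several paralogs were expressed more than their partner gene, on the TPM scale. Rpl22l1 had 42.9, 46.4, 36.7 and 26.6 TPM, which was 6.16, 5.90, 5.65 and 3.43 times the level of Rpl22. Rpl36al had 900, 869, 869 and 614 TPM, between 5.62 and 7.04 times Rpl36a. Rpl37rt had 683, 684, 648 and 607 TPM, between 4.18 and 4.90 times Rpl37, and Rps27l was 1.41 to 2.45 times Rps27. Each of these orders held in all 4 libraries on TPM. In estimated counts Rpl36al, Rpl37rt and Rps27l were also above their partners, but Rpl22l1, with 350, 348, 285 and 194, was below Rpl22, with 384, 387, 330 and 368. Its order thus rests on the effective lengths of the listed transcripts, 306 bases for Rpl22l1 and 2023 bases for Rpl22. No stretch of 100 bases of Rpl22l1, Rpl36al or Rps27l occurs in the partner gene, whereas 24.2% of the stretches of Rpl37rt occur in Rpl37, so that pair is uncertain.

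Other paralogs were minor forms. Rpl39l, best known from male germ cells, had 251, 280, 247 and 249 TPM, between 0.330 and 0.502 times Rpl39. Rpl10l, an autosomal copy of the X-linked Rpl10 known from meiotic male germ cells, had 9.58, 9.80, 10.8 and 18.1 TPM, or 0.0220 to 0.0650 times Rpl10. Rpl7l1, which acts in assembly of the 60S subunit, had 15.1, 15.3, 16.5 and 25.3 TPM. Rpl10l and Rpl7l1 were the 2 members with both irradiated libraries above both controls, by 0.32 ± 0.180 and 0.21 ± 0.138 (SE) on the log2 scale. Neither passed the test (unadjusted p = 0.117 and 0.169 in edgeR's fit). Rpl3l, the striated muscle form of Rpl3, had 1.82, 1.39, 4.73 and 0 estimated counts and could not be tested. Rpl32l, with 171, 183, 152 and 44.8 normalized counts, and Rps23rg1, with 86.1, 72.6, 86.1 and 69.7, were the lowest of the remaining copies. For Rps23rg1 the direction of the log2 fold change of -0.03 turned with the scaling.

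Most members have short transcripts, and other genes of up to 500 bases were slightly low in irradiated library 2. Members of up to 500 bases of effective length had a median log2 ratio of -0.81 in irradiated library 2 (39 genes), against -0.16 for other genes of that length (257 genes). Between 500 and 1000 bases the medians were -0.70 (33 members) and -0.01 (1085 other genes), and between 1000 and 2000 bases -0.61 (12 members) and 0.12 (3238 other genes). Above 2000 bases there were few members. The median was -0.36 for 3 members up to 4000 bases (0.05 for 4729 other genes). It was -0.82 for the 1 member beyond (-0.10 for 3172 other genes). The members' medians thus rose with length up to 4000 bases, and the 1 member beyond broke this order. In irradiated library 1, the medians in the ranges up to 500, 1000 and 2000 bases were -0.11, -0.12 and -0.07 for members and -0.09, -0.05 and 0.02 for other genes, so that the shortest members and other genes of that length were close. Among genes of up to 1000 bases and a mean of at least 50 TPM, the median was -0.11 for 64 members and -0.07 for 598 other genes in irradiated library 1, and -0.72 and -0.26 in irradiated library 2. Members and other genes were not matched for length or level within these ranges, and the part of length and level in the members' values was not tested.

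**Figure D3:**
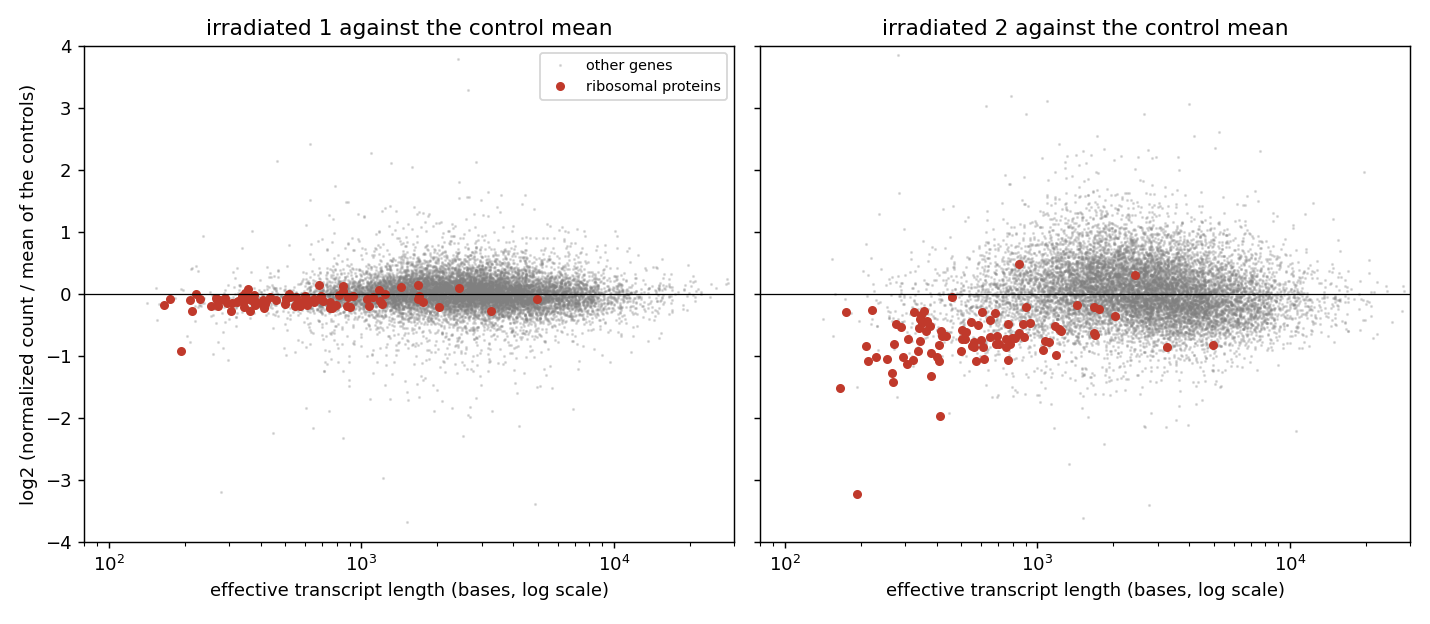
Log2 ratio of the normalized count, with 1 added, to the control mean against effective transcript length in bases (log scale), for irradiated library 1 (left) and irradiated library 2 (right); red points are ribosomal protein genes and grey points other genes. In the right panel most red points lie below 0 and low in the grey cloud at all lengths up to 2000 bases, and in the left panel they lie just under 0; 13 genes lie beyond the vertical range and 10 beyond the horizontal range.

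The rest of the translation machinery was followed with lists of other genes. Some parts of the cytosolic ribosome have symbols that the rule does not reach. Fau, which encodes a 40S protein fused to a ubiquitin-like domain, had 14612, 14050, 13817 and 8300 normalized counts. Like most members, it was lowest in irradiated library 2. Rack1, a 40S scaffold protein, had 2090, 2039, 2089 and 2440 and was highest in irradiated library 2.

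The other lists of the translation machinery lay closer to 0 than members did, whereas the 11 oocyte markers had a median log2 ratio of -0.01 in irradiated library 1 and -0.52 in irradiated library 2, a ratio of 0.698. The 78 mitochondrial ribosomal proteins build a separate ribosome inside mitochondria. Their median log2 ratios were -0.05 in irradiated library 1 and -0.19 in irradiated library 2. At an unadjusted p under 0.05 in edgeR's fit, 0 of them were lower and 2 higher. Of all genes tested, 1.29% were lower and 4.63% higher at that p, the shares against which the counts of each list here are to be read. The 17 other TOP mRNAs, which include Fau, Rack1 and several elongation factors, had medians of -0.02 and -0.29, with 1 lower and 1 higher. Among them Npm1, a nucleolar chaperone of ribosome assembly, had 20931, 19912, 17069 and 9339 normalized counts, and Eef1a1, the elongation factor that delivers aminoacyl-tRNA, had 13536, 14152, 13135 and 9514. Tpt1, a classic TOP mRNA, had 5552, 6012, 5496 and 5933, so the list did not move as one. These 3 genes were picked with their values in view. The 50 ribosome assembly genes had medians of 0.00 and -0.20 (1 lower, 3 higher), the 43 translation factors -0.03 and -0.18 (2 lower, 1 higher), and the 15 genes of RNA polymerase I, which transcribes ribosomal RNA, 0.05 and -0.13 (0 lower, 0 higher). None of these lists had a gene past both limits. The lists are not separate, since Npm1 had the lowest log2 fold change (-0.63) of both the TOP and the ribosome assembly lists. The differences between lists were not tested.

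**Figure D4:**
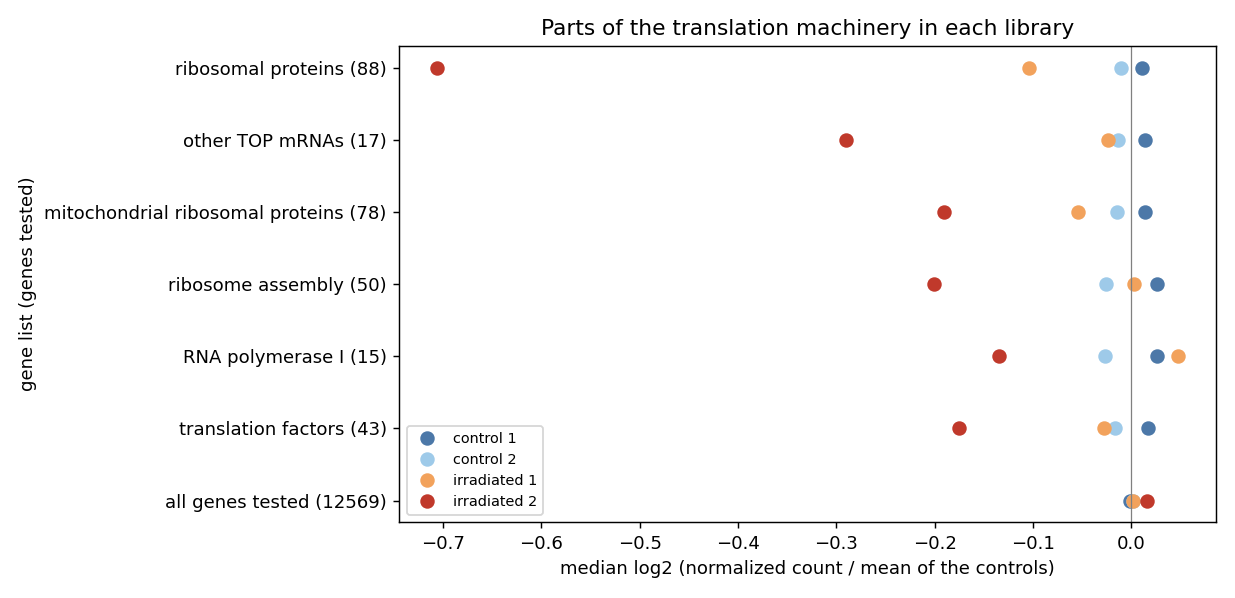
Median log2 ratio of the normalized count, with 1 added, to the control mean for 6 lists of the translation machinery and for all genes tested, with a point for each of the 4 libraries and the number of genes tested in parentheses. The ribosomal proteins are farthest from 0 in irradiated library 2 (-0.71), while the other 5 lists lie between -0.13 and -0.29. Not plotted are the median log2 fold changes scaled by library size alone or on TPM. There the mitochondrial ribosomal proteins, ribosome assembly, RNA polymerase I and translation factors turn above 0. The other TOP mRNAs do so on TPM alone (0.05). All genes stand at 0.17 and 0.14, above each of these lists, and the ribosomal proteins stay below 0.

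The scaling of the libraries moved all values together. Scaled by library size alone, the median log2 fold change of all genes was 0.17 and that of members -0.24, and with limma on log2(TPM + 1) these were 0.14 and -0.19. Members were thus below the median of all genes by 0.38 in the values above and by 0.41 and 0.33 in these, with 80 and 76 of 88 members below 0 where 27.0% and 19.7% of all genes were. The median of mitochondrial ribosomal proteins, -0.11 in the values above, turned to 0.05 and 0.10, below that of all genes but above 0.

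Transcript forms were compared where the table lists several. Of the members, 55 had 1 listed transcript and 34 had several, up to 6. In 17 of these 34 genes the leading transcript held over 90% of the gene's estimated counts. Of 140 transcripts tested by edgeR, 0 were past both limits (0.0% of all transcripts tested), the smallest adjusted p was 0.809, and 1, a transcript of Rps24, was at an unadjusted p under 0.05 (4.9% of all). Of 33 members tested for a shift of transcript shares, 0 had an adjusted p under 0.05 (0.253% of all genes tested) and 0 an unadjusted p under 0.05 (6.12%).

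The smallest unadjusted p of a shift was 0.194, in Rpl6, a 60S protein. Its predicted transcript XM_006530227.2 held 0.925% and 1.21% of the gene's counts in the control libraries, 1.92% in irradiated library 1 and 5.98% in irradiated library 2. The known form thus kept nearly all of the gene in each library. Rpl30, a 60S protein, was the member in which the leading form changed between conditions: NM_001163485.1 held 55.4%, 53.3%, 49.97% and 42.6% of its counts, and NM_009083.4 held the rest. In Rpl34 the leading form NM_001005859.3 held 57.5%, 57.3%, 57.3% and 46.2%. In Rpl35a the form NM_001130485.1 held 25.5%, 29.1%, 27.7% and 16.0%, and in Rpl19 the minor form NM_001159483.1 held 1.66%, 1.45%, 1.61% and 4.07%. In these 4 genes the control libraries and irradiated library 1 lay close together or declined by little, and irradiated library 2 lay apart, as in the gene totals. Counts of transcripts of 1 gene are estimates that divide shared reads, and none of these shifts passed the test.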

How the data were processed

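RNA-seq of 4 libraries was analysed, grouped by the treatment and number in the sample titles. Per the paper's methods, the authors aligned trimmed paired-end reads to GRCm38 with Bowtie2. The submitters' processing notes also name RSEM and HISAT2, without versions, and the annotation release is not given in the sources used here. The authors deposited an estimated count, a TPM and an FPKM value for each RefSeq transcript and library. The 6 further columns of averages were not used here. The deposited FPKM values served only to derive effective lengths.

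Estimated counts and TPM were summed per gene. Summed counts of a gene were whole in all libraries, within 0.01, for 52 members and not for 37. Reads divided among transcripts of 1 gene leave its total whole apart from rounding. Rpl23, with 1 listed transcript, had 981.58 counts in control library 1, so reads can also have been divided between genes. The table lists mRNAs only (22834 known and 22671 predicted), so reads from processed pseudogenes, of which ribosomal proteins have many, may be counted here. Symbols came from RefSeq by gene ID, and 17323 of 17374 matched. Rounded counts of all genes were tested in R 4.3.3 with the quasi-likelihood test of edgeR 4.0.16, after TMM scaling and the filterByExpr rule (minimum count 10), with Benjamini-Hochberg adjustment over all genes tested, and transcript shares with diffSpliceDGE and Simes' method. Alternatives used DESeq2 1.42.0, limma 3.58.1 with a pseudocount of 1, library size alone, no filter, a replicate block and each library left out. The scripts were tested on simulated data. Figures were drawn with matplotlib 3.10.9.

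The p-values measure the spread between 2 libraries per condition, which may be technical. Ratios to the control mean, medians, correlations across genes and motif counts are descriptions without a test. The genes named were the 5 highest and the 5 lowest members by mean TPM with over 3 counts in every library, up to 5 in each direction with the smallest unadjusted p under 0.05, any past both limits, the paralog pairs, the members linked to MDM2, the P stalk, the 5 members with the smallest p for transcript shares, and Fau and Rack1. Any other gene was picked once its values had been seen. Rps4l was to be paired with Rps4x and was not analysed here, and single values of a few genes are not reported here. Members and lists were chosen with earlier results of these data known. Protein sequences were not used here, and 20 members had no promoter entry.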

Additional observations from a re-analysis of the deposited data

How the results depend on the processing

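The number of members past both limits was 0 in edgeR's fit, with DESeq2, with library size alone, without a filter, on log2(TPM + 1) and with a replicate block. With 1 library left out, Rps27rt went beyond the fold change limit, at -2.02 without control library 1 and -3.29 without irradiated library 1. The share of all genes past both limits is not given for these fits, so calls past both limits are not counted in them. The number at an unadjusted p under 0.05, 5 in edgeR's fit, was 14 with DESeq2, 1 with library size alone, 20 without a filter, 3 on log2(TPM + 1), 34 with a replicate block, and 4 to 86 with 1 library left out. Of all genes tested, 5.92% were at that p in edgeR's fit, 3.53%, 4.66%, 6.89%, 2.96% and 10.3% under the 5 alternatives in this order, and 2.45% to 41.5% with 1 library left out. The cause of these differences was not tested.

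The labels do not say whether equal replicate numbers mark the same experiment. Over 12569 genes the deviations of the control and irradiated libraries of the same number correlated at r = 0.0777. With so few libraries per condition, this value cannot decide whether they were paired. With the replicate block the median log2 fold change of members was -0.40 and the smallest adjusted p 0.262.

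As a share of estimated counts the difference between irradiated and control oocytes was -0.23 percentage points in place of -0.56 on TPM. Of 351 values for 39 named genes under these alternatives, 341 kept their direction and side of the limits. Another 2 were the Rps27rt values of -2.02 and -3.29 given above. The other 8 changed sign: Rpl34 was 0.0553 with library size alone, 0.0711 on TPM and 0.0808 without irradiated library 2, Rplp0 was 0.0746 without irradiated library 2, and Rps23rg1 was 0.120, 0.130, 0.0939 and 0.117 with library size alone, on TPM, without control library 1 and without irradiated library 2.

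With 1 library left out these 3 genes reached -0.29, -0.53 and -0.20, each without irradiated library 1. Depth was similar in all libraries, and members other than Rpl3l had over 3 counts in each.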

Other observations

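Across the 88 members tested, the log2 ratio in irradiated library 2 had a Spearman correlation of 0.29 with effective length and -0.28 with mean TPM, and over 12481 other genes these were -0.12 and -0.18. The points are genes of the same libraries and are not independent replicates. Ratios that share no library, irradiated library 1 over control library 1 and irradiated library 2 over control library 2, had a Spearman correlation of 0.34 over members and 0.25 over other genes, and with the control libraries exchanged 0.37 and 0.07. Among oocyte markers, Ooep, part of the subcortical maternal complex, had 3994, 3978, 3889 and 1595 TPM in the order control 1, control 2, irradiated 1, irradiated 2, while Zp1, a zona pellucida protein, had 989, 1294, 1175 and 2579 TPM. Both genes were chosen after their values were seen.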
